A study of Glycine max with 12 samples.

Results

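The probesets raised by nitrate in the roots only were 36 of the 42748 probesets on a soybean oligonucleotide array. They were chosen from the signals themselves. Each array was scaled to an average signal of 2500, signals were taken to log2, and a probeset was kept if it met 5 conditions. The mean of the nitrate roots was at least 2 log2 units (4-fold) above the control roots, all 3 nitrate root arrays lay above all 3 control root arrays, and the spot was well above background on all 3 nitrate root arrays. The nodule change lay between -1 and 1, and the control roots were no more than 1 log2 unit below the control nodules. The names of 4 probesets were set aside beforehand, of which 1 met all conditions, and they are not reported here. All root, nodule and organ values of the 36 probesets therefore describe how they were chosen, and no test of them is offered as evidence.

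The plants were soybean (Glycine max cultivar Nourin No. 2) inoculated with Bradyrhizobium diazoefficiens USDA110 and grown in aerated culture solution without nitrogen. The nitrate plants, then 19 days old from planting, received 5 mM nitrate over 24 h, while the control plants stayed without nitrogen. Nitrate roots, control roots, nitrate nodules and control nodules had 3 samples each, and each sample pooled 3 plants. The roots were the lower part of the root system, without visible nodules, and the nodules were those wider than 3 mm from the upper part, so a root sample is not the root tissue that carried the nodules. All plants were nodulated, and none was grown without rhizobia.

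Nitrate is taken up by root cells, reduced to nitrite by nitrate reductase and then to ammonium by nitrite reductase, and built into glutamine. Nitrate reductase needs a molybdenum cofactor, and the reductases draw on reducing power. Nitrate is also a signal, which changes the expression of many root genes within hours, and in legumes an external supply lowers nodule growth and nitrogen fixation. A nodule is the root organ in which rhizobia fix nitrogen for the plant.

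Between 79.2% and 84.5% of the probesets of an array were well above background, and no spot was saturated. Nodule tissue in the root samples was followed with the 100 probesets that stood highest in control nodules over control roots, a set chosen with these control arrays. They made up 0.0143%, 0.0268% and 0.00459% of all signal on the nitrate root arrays and 0.0145%, 0.00353% and 0.00682% on the control root arrays, against 2.17% to 2.48% on the nitrate nodule arrays and 2.41% to 2.57% on the control nodule arrays. The values of nitrate and control roots overlapped, while 75 of the 100 had a higher mean in nitrate roots, with a median root change of 0.32 against 0.10 for all probesets tested, and 3 rose by limma. Their part in the results was not tested, and none of the 36 probesets belonged to this set. Leghemoglobin, the oxygen-binding protein of nodules, was not analysed here. The 3 nitrate root arrays and control root 1 lay on 1 slide, and control roots 2 and 3 lay on another, with nitrate nodules 1 and 2. The third slide held the 3 control nodules and nitrate nodule 3, so slide and treatment overlapped in nodules too. In pooled tissue, a change in the number of cells of a type and a change in RNA per cell cannot be told apart.

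Of 42748 probesets, 235 were at least 2 log2 units higher in nitrate roots, 206 of these had separate root arrays, and 194 of these were also well above background. A nodule change above 1 took out 52 of them, and one below -1 took out 16. Of the 126 left, 89 had control nodules more than 1 log2 unit above control roots. The last condition took out all 6 probesets described as nitrate or nitrite reductase. These were higher in nitrate roots by 6.16 to 10.41 log2 units and changed by 0.10 to 0.42 in nodules, but their control roots minus control nodules came to -3.45 to -5.19, so the nodules had stood far higher. What remained were probesets higher in nitrate roots whose control root signal was near or above that of control nodules. Without nitrate root 3 the same conditions gave 59 probesets in place of 36.

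**Figure D1:**
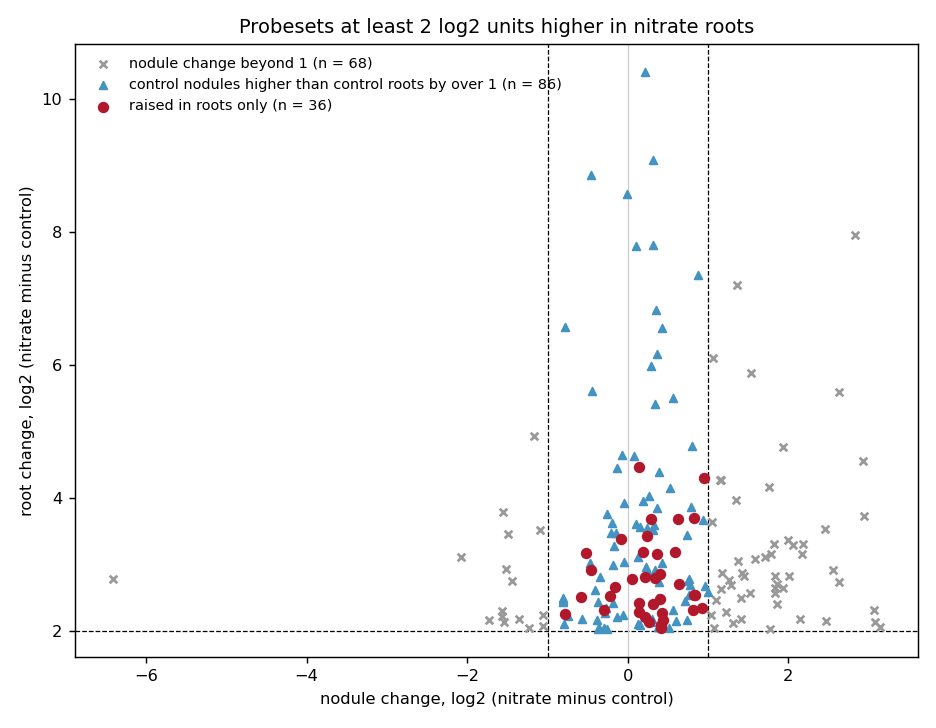
Root change against nodule change, both as log2 of nitrate minus control, for the probesets at least 2 log2 units higher in nitrate roots with separate, bright root arrays. Dashed lines mark the limits of 2, -1 and 1. The 36 probesets raised in roots only (circles) had nodule changes from -0.79 to 0.95, while the 86 triangles lay in the same window but had higher control nodules, and the 68 crosses changed by more than 1 in nodules.

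Across the 36 probesets the root change ran from 2.04 to 4.46 log2 units, or 4.11-fold to 22-fold, and 11 of them reached 3 log2 units. Their signals on all arrays are plotted by probeset. With limma on the 6 root arrays, 31 of the 36 passed an adjusted p of 0.05 (Benjamini-Hochberg) and a 2-fold rise. Of the 33957 probesets tested, 0.851% did so. The 31 include 2 probesets dim on every control root array, whose folds are only lower bounds. They are CO980866.1_352 (3.34-fold) and CA936913.1_509 (1.56-fold), and the latter also counts in the slide-block result below. With the replicate number as a block, all 36 passed, against 4.23% of all probesets. With the slide as a block, 13 of 36 passed, against 0.233%. The changes of the slide block compare the nitrate roots with control root 1 alone, since the other control roots lay on a slide without nitrate roots. Without control root 3, 19 of 36 passed, against 118 of all 34015 probesets tested. Separate root arrays, which the choice required, were found in 12.5% of all probesets. No spot of a member was marked as an outlier by the scanner software.

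**Figure D2:**
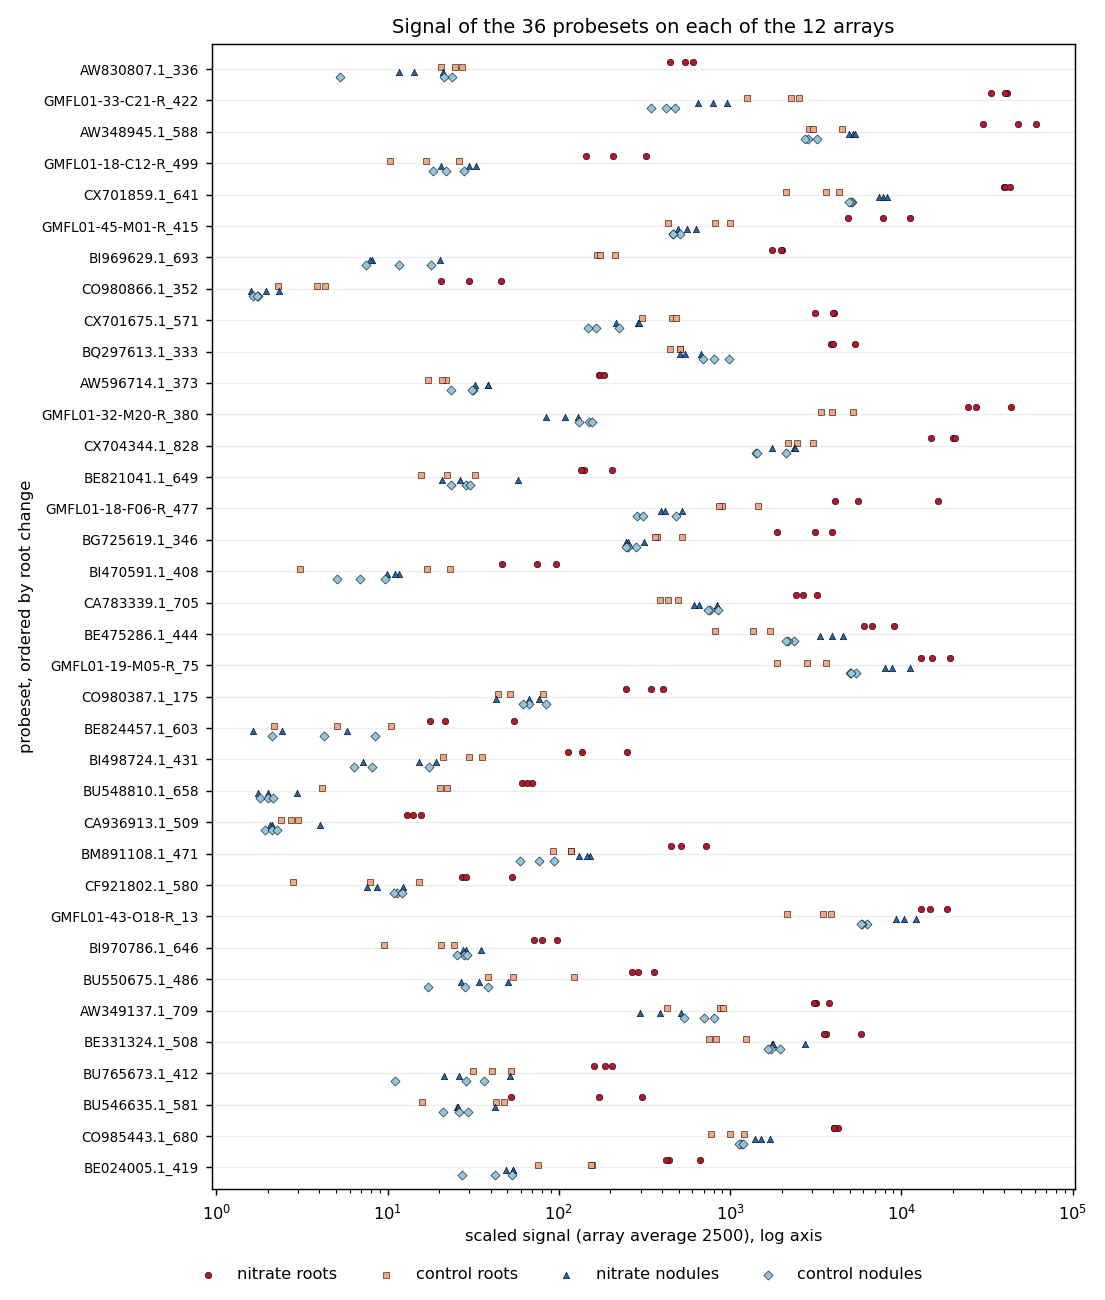
Scaled signal of each of the 36 probesets on the 12 arrays, on a log axis, with 3 points per group and probesets ordered by root change. The nitrate roots lie to the right of the control roots in every row, and the means of the 2 nodule groups lie within 0.95 log2 units of each other.

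The probeset with the largest root change was AW830807.1_336, described as a glutaredoxin, a small enzyme that reduces disulfides with glutathione. It had 447, 604 and 544 units of signal in nitrate roots, against 24.8, 27.4 and 20.4 in control roots. In nodules it had 11.7, 14.3 and 20.9 units with nitrate and 23.8, 21.3 and 5.26 in the control, and 1 control nodule array was not well above background. The nitrate roots stood apart, and the other 3 groups overlapped. Its root change was 4.46 ± 0.22 log2 units (SE, n = 3 each), 22-fold, and 3.09 with normexp, another background correction. Normexp starts again from the spot and local background signals and adds an offset of 50 units before scaling, which narrows the ratios of dim signals. The nodule change of this glutaredoxin probeset was 0.13, and -0.57 without control nodule 3. The other glutaredoxin probeset, BE024005.1_419, had 441, 669 and 424 units in nitrate roots against 155, 154 and 75.2 in control roots, and its change of 2.04 ± 0.35 was the smallest of the 36. It was kept under none of the 3 other scalings given at the end. In nodules this probeset had 48.9, 54.0 and 53.9 units with nitrate and 42.5, 53.0 and 27.2 in the control, so control roots already stood above control nodules.

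CX701859.1_641, described as a monodehydroascorbate/ferredoxin reductase, an enzyme family that returns oxidised ascorbate to its reduced form, had 40018, 40374 and 42993 units in nitrate roots and 4330.1, 2124 and 3618 in control roots. The nitrate roots differed little among themselves, and the change was 3.68 ± 0.29 log2 units. In nodules it had 7850.5, 8275 and 7442 units with nitrate and 5164, 5114 and 4973 in the control. The nodule arrays also separated, by 0.63 ± 0.07 log2 units, and control nodules stood above control roots. Of 27 described probesets in the redox word list, 26 were tested in roots, where 5 rose and 5 fell by the same limma criteria, with a median change of 0.62.

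The second largest change was that of GMFL01-33-C21-R_422, described as a serine/threonine protein phosphatase, which removes phosphate from proteins. It had 33334, 41200.5 and 40347 units in nitrate roots, against 2282, 1255 and 2535 in control roots. Nodules had 790.2, 956 and 651 units with nitrate, against 474, 343 and 422 in the control. All 4 groups separated from each other, with the nitrate roots 4.30 ± 0.30 log2 units (19.7-fold) above the control roots and the nitrate nodules 0.95 ± 0.18 above the control nodules. This nodule change was the closest of the 36 to the upper limit of 1.

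A serine/threonine kinase known as Lotus clone LNZ003 had 3 probesets among the 36. BE475286.1_444 had 9109.5, 6738 and 6036 units in nitrate roots against 1701, 818 and 1355 in control roots. GMFL01-19-M05-R_75 had 19350.0, 15008 and 13028 units in nitrate roots against 3652, 1883 and 2825 in control roots. GMFL01-43-O18-R_13 had 18442, 14609.5 and 12999.6 units in nitrate roots against 3894, 2139.5 and 3482 in control roots. On each, nitrate root 1 was the brightest and control root 2 the dimmest, and the changes were 2.54 ± 0.32, 2.54 ± 0.30 and 2.31 ± 0.29 log2 units.

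In nodules, GMFL01-19-M05-R_75 had 8079.9, 8772 and 11230.0 units with nitrate and 5434, 5006 and 5116 in the control. The 3 probesets were 1.76-fold to 1.79-fold higher in nitrate nodules, with separate arrays on each (within slide 3 alone, 1.02 to 1.12 log2 units, just past the limit of 1), and their nitrate roots had 1.44 to 1.84 times the nitrate nodule signal and their control roots 0.513 to 0.557 of the control nodule signal. The same description belonged to 2 more probesets just outside the limits, GMFL01-34-O04-R_283 with a root change of 2.24 and a nodule change of 1.04, and GMFL01-41-A21-F_344 with a root change of 2.78 and an organ difference of -1.11. The 5 may report one transcript or close relatives, which was not tested, and they are not 5 separate observations.

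2 further kinases were members. BU550675.1_486, a serine/threonine protein kinase, had 292, 268 and 359 units in nitrate roots and 122, 54.3 and 38.5 in control roots, with 34.2, 50.3 and 26.9 in nitrate nodules and 38.8, 28.2 and 17.3 in control nodules. Its change of 2.26 ± 0.42 was 1.31 against the control root of the same slide and 1.55 with normexp. BU548810.1_658, described as the Arabidopsis kinase At1g51940 with a LysM domain, the fold by which plant receptors bind chitin and, in legumes, Nod factors, had 69.5, 60.7 and 65.0 units in nitrate roots against 20.1, 4.12 and 22.1 in control roots. Its root difference of 2.41 was 0.61 with normexp and 1.62 without control root 2, which was not well above background. The limma test was not passed, and no nodule array was well above background. Of 69 described kinases and phosphatases, 66 were tested in roots, where 14 rose and 14 fell, with a median of -0.26.

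All 3 probesets described as inositol 1,3,4-trisphosphate 5/6-kinase, after a rice gene, were members. The enzyme adds phosphates to inositol phosphates on the way to phytate. BQ297613.1_333 had 5380.1, 3907 and 3982 units in nitrate roots and 509, 512 and 443 in control roots, and CA783339.1_705 had 3204, 2425 and 2665 units in nitrate roots and 498, 388 and 433 in control roots. Both were brightest on nitrate root 1, and their changes were 3.17 ± 0.22 and 2.65 ± 0.21 log2 units. BI970786.1_646 had 71.4, 80.1 and 97.8 units in nitrate roots and 20.6, 9.59 and 24.6 in control roots, a change of 2.28 ± 0.37 (1.02 with normexp), with control root 2 not well above background.

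In nodules only 1 of the 3 inositol kinase probesets had separate arrays, so no difference in direction among them was shown. The 3 share a description and may report one transcript, which was not tested, and they are not 3 separate observations. BQ297613.1_333 had 672, 510.5 and 545 units in nitrate nodules and 981, 803 and 696 in control nodules. Every nitrate array lay below every control array, by 0.52 ± 0.16 log2 units. The call was lost with the slide as a block, where the change was -0.59 ± 0.24. CA783339.1_705 had 660.4, 618 and 843 units in nitrate nodules and 855, 760.2 and 745 in control nodules, and BI970786.1_646 had 28.8, 27.5 and 35 in nitrate nodules and 27.8, 25.3 and 29.2 in control nodules. The arrays of these 2 overlapped. On the 3 probesets, nitrate roots held 2.72 to 7.65 times the nitrate nodule signal and control roots 0.557 to 0.618 of the control nodule signal.

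**Figure D3:**
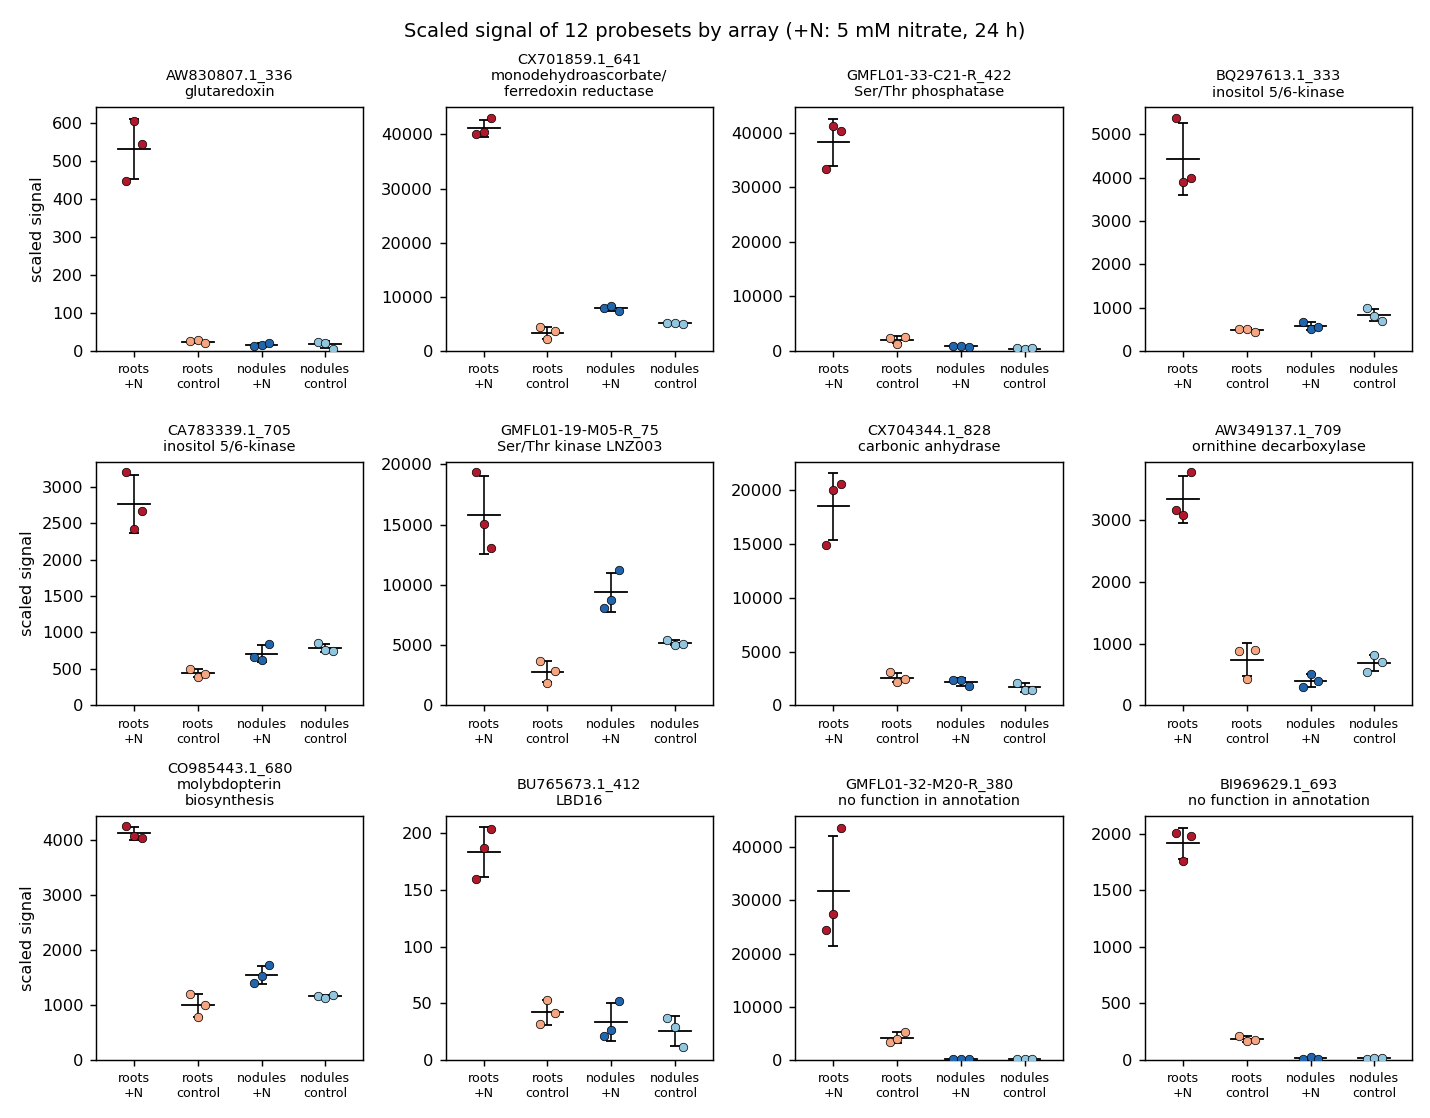
Scaled signal of 12 probesets on each array, with nitrate roots, control roots, nitrate nodules and control nodules from left to right; the line is the mean and the bar 1 SD (n = 3). Nitrate roots were highest in each panel, an order that the limits of the choice set for log2 means. Ornithine decarboxylase was lower in nitrate nodules than in control nodules.

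Molybdopterin is the organic part of the molybdenum cofactor of nitrate reductase, and both probesets described as molybdopterin biosynthesis protein were members. CO985443.1_680 had 4262, 4069.7 and 4037 units in nitrate roots, against 1198, 778 and 996 in control roots, a change of 2.08 ± 0.22 log2 units. This probeset was kept under none of the 3 other scalings given at the end. Nodules had 1391, 1521 and 1719 units with nitrate and 1156, 1122 and 1184 in the control, so the nodule arrays separated too, by 0.41 ± 0.09. CA936913.1_509 was dim, with 15.7, 14.1 and 13 units in nitrate roots and 3.00, 2.74 and 2.39 in control roots. None of its control root or nodule arrays was well above background, so nitrate roots were at least 1.56-fold higher than control roots and no nodule fold is given. That bound is under the 4-fold of the selection, and the change was 0.12 with normexp. The only other described probeset of this cofactor list, a uroporphyrin III methyltransferase of siroheme synthesis, was 3.96 log2 units higher in nitrate roots but had an organ difference of -2.04 in control plants.

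AW349137.1_709 is soybean ornithine decarboxylase (odc1), which makes putrescine, the first polyamine, from ornithine. It had 3170.5, 3083 and 3779 units in nitrate roots and 876, 427 and 905 in control roots, a change of 2.26 ± 0.32 log2 units. In nodules it had 296, 515 and 391 units with nitrate, all below the 540.1, 809 and 706 of the control, a fall of 0.79 ± 0.24 log2 units. The call was lost with the slide as a block, where the change was -0.79 ± 0.36. With nitrate the roots were 8.52-fold above the nodules, while the control roots were at 1.03 of the control nodules. Of 6 described probesets of polyamine and proline metabolism, 3 rose in roots and none fell, with a median of 2.12. The 2 spermidine synthase probesets, outside the 36, went opposite ways in nodules: CA800176.1_514 had a root change of 3.37 and a nodule change of 1.99, and AW595962.1_238 had 2.07 and -1.06.

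CX704344.1_828, described as a carbonic anhydrase, which interconverts carbon dioxide and bicarbonate, had 14936, 20009.6 and 20638 units in nitrate roots and 3053, 2191 and 2461 in control roots. Nodules had 2366, 2389 and 1763 units with nitrate and 2114, 1425 and 1426 in the control. The nodule groups overlapped, and the root change was 2.85 ± 0.23 log2 units (7.21-fold). BE331324.1_508, an acyl-CoA synthetase, which activates fatty acids, had 5846, 3615 and 3556 units in nitrate roots and 1241, 822 and 748 in control roots, with 1766, 2740.3 and 1791 in nitrate nodules and 1946, 1745 and 1657 in control nodules. Its root change was 2.21 ± 0.30 log2 units and its nodule groups overlapped. Nitrate roots held 2.06 times the nitrate nodule signal, and control roots 0.514 of the control nodule signal, close to the organ limit.

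LBD16 was the only transcription regulator named among the 36. In Arabidopsis it acts downstream of auxin when lateral roots are initiated. BU765673.1_412 had 160.1, 187 and 204 units in nitrate roots and 31.6, 52.9 and 41.0 in control roots, a change of 2.16 ± 0.25 log2 units. Nodules had 21.2, 26.1 and 52.0 units with nitrate and 36.5, 28.8 and 11 in the control, and these overlapped. Against the control root of the same slide the change was 2.53, and with normexp 1.35. Within slide 3 the nodule change was 1.20. Of 65 described transcription regulators, 60 were tested in roots, where 15 rose and 13 fell, with a median of 0.39.

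CF921802.1_580, described as maize atg9, a membrane protein of autophagosome formation, had 53.3, 27.4 and 28.8 units in nitrate roots and 15.3, 2.82 and 7.90 in control roots. Only 1 control root array was well above background and the limma test was not passed. The difference of 2.32 was 0.55 with normexp and 1.66 without control root 2. BE821041.1_649, an AAA+ ATPase, of a family that remodels proteins with ATP, had 141, 135 and 204 units in nitrate roots and 22.3, 15.7 and 32.5 in control roots, a change of 2.81 ± 0.32, or 1.42 with normexp. Its nodules had 20.9, 26.3 and 57.9 units with nitrate and 28.6, 23.6 and 30.4 in the control, with the groups overlapping, and within slide 3 the nodule change was 1.08.

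Several of the largest changes belonged to probesets with no function in their description. AW348945.1_588, described by the pepper mRNA upa10, had 30178, 47785 and 61159.7 units in nitrate roots, against 2905, 3063 and 4518 in control roots, a change of 3.70 ± 0.32 log2 units. Nodules had 5229.9, 5369 and 4970.1 units with nitrate and 2835, 3219.7 and 2743 in the control, and they separated by 0.83 ± 0.08. CX701675.1_571, described only by a Medicago clone, had 3133, 4046 and 3968 units in nitrate roots and 458, 486 and 306 in control roots, with 289.9, 294 and 216 in nitrate nodules and 226, 165 and 148 in control nodules. It changed by 3.18 ± 0.25 in roots, and its nodule groups overlapped. AW596714.1_373, a soybean expressed sequence tag, had 171, 175 and 184 units in nitrate roots and 17.3, 22 and 20.8 in control roots, with 38.4, 38.5 and 32.5 in nitrate nodules and 31.5, 23.4 and 30.9 in control nodules. The change was 3.15 ± 0.20, and 1.65 with normexp.

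2 such probesets stood well above nodules in control roots too. GMFL01-32-M20-R_380, described only by a Lotus genomic clone, had 24424, 27450.0 and 43703 units in nitrate roots and 3373, 3955 and 5228 in control roots. Nodules held 109, 83.6 and 129 units with nitrate, all below the 149.6, 131 and 155 of the control. Nitrate roots were 292-fold above nitrate nodules, the widest organ difference of the 36, and control roots were 28.4-fold above control nodules. BI969629.1_693, a soybean expressed sequence tag, had 2009.5, 1757 and 1984 units in nitrate roots and 212, 167 and 174 in control roots. In nodules it had 8.12, 20.1 and 7.86 units with nitrate and 7.45, 11.7 and 17.8 in the control, where 1 nitrate array and 2 control arrays were well above background. Its root change was 3.38 ± 0.20, and the control roots were 15.9-fold above the control nodules.

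9 probesets had no description, and their root changes ran from 2.13 to 3.69 log2 units. GMFL01-45-M01-R_415 had 4902, 11268 and 7804 units in nitrate roots and 811, 435 and 993 in control roots, a change of 3.42 ± 0.41. GMFL01-18-C12-R_499 had 144, 323 and 208 units in nitrate roots and 16.8, 10.3 and 26.1 in control roots, a change of 3.69 ± 0.42 (1.96 with normexp) with 2 control root arrays well above background. Both were brightest on nitrate root 2 and dimmest on control root 2. GMFL01-18-F06-R_477 was also brightest on nitrate root 2, with 5618, 16433 and 4082 units in nitrate roots and 1451, 901 and 862 in control roots. Its change of 2.80 ± 0.51 was 2.20 without nitrate root 2. BG725619.1_346 changed by 2.78 ± 0.32 and BI498724.1_431 by 2.48 ± 0.35 (1.38 with normexp), and the nodule groups of both overlapped, as did those of CO980387.1_175, a soybean expressed sequence tag with a root change of 2.51 ± 0.31 (1.76 with normexp). CO980866.1_352 had 46.2, 30.0 and 20.5 units in nitrate roots and 4.30, 3.85 and 2.27 in control roots, none of them well above background, so it was at least 3.34-fold higher, and no nodule fold is given. Its change was 0.53 with normexp.

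In control plants, 31 of the 36 probesets were well above background on every root array or every nodule array. Control roots lay wholly above control nodules on 9 of these, against 29.9% of such probesets at large, and wholly below on 9, against 45.6%. The choice left out probesets whose control roots lay more than 1 log2 unit below control nodules, so these counts are not a result. The other 13 overlapped. With nitrate, the root mean lay above the nodule mean by 1.44-fold for GMFL01-43-O18-R_13 to 292-fold for GMFL01-32-M20-R_380, and 3 of the 36 were dim on every nodule array. The 9 that had stood below the nodules included the 3 LNZ003 kinase probesets, the 3 inositol kinase probesets and the monodehydroascorbate/ferredoxin reductase, and with nitrate the order of the organs was reversed. The limits on the root change, the nodule change and the organ difference together admit no probeset whose nitrate roots average below its nitrate nodules in log2. The order of the organs with nitrate was therefore set by the choice and is not a result.

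**Figure D4:**
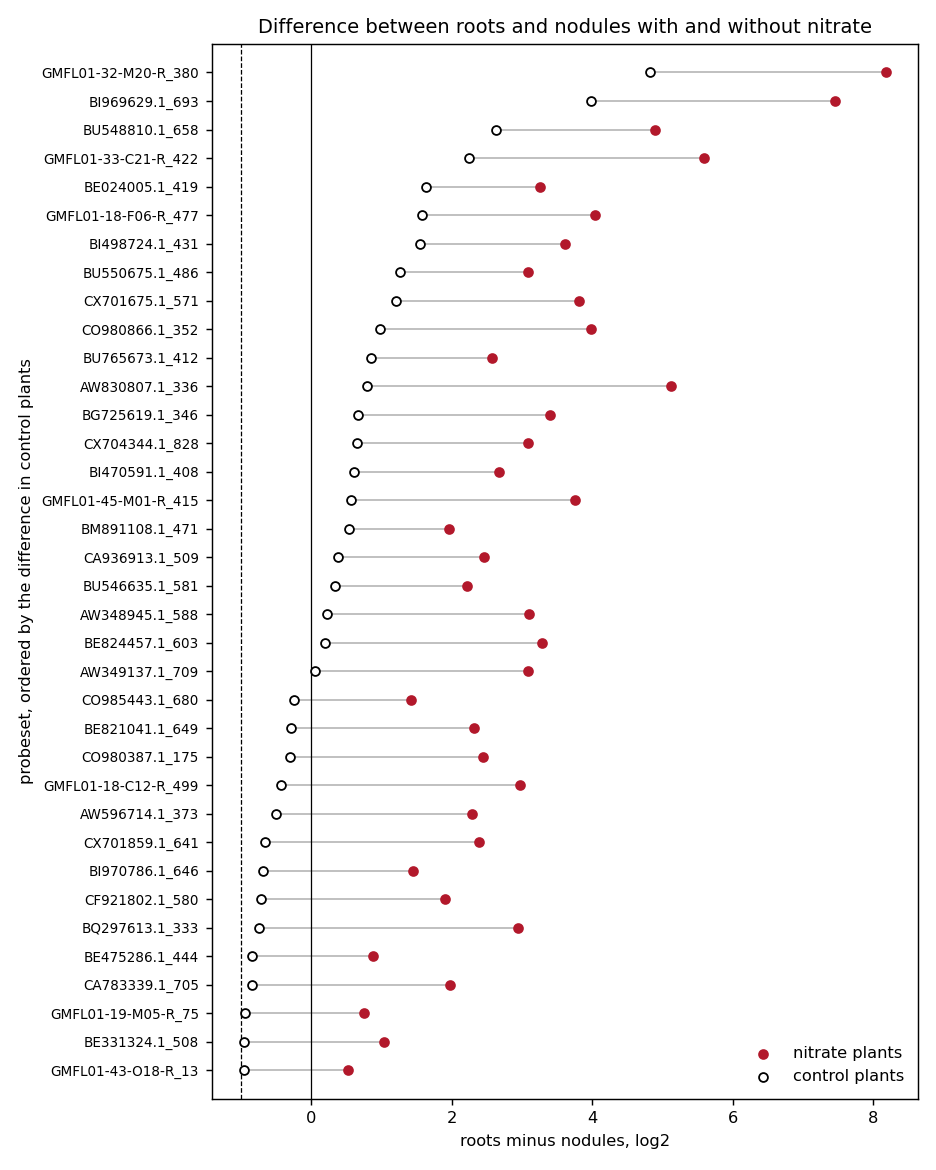
Difference between roots and nodules, as log2, in nitrate plants (filled) and control plants (open) for the 36 probesets, ordered by the difference in control plants. The dashed line is the organ limit of -1. Every filled point lies above 0, where the limits of the choice place it, and 14 open points lie below it.

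Some of the 36 probesets also changed in nodules, by less than the limit of 1. Of the 36 probesets, 30 could be tested in nodules with limma, and 10 of them passed an adjusted p of 0.05 (Benjamini-Hochberg) at any size, against 45.6% of all 35253 probesets tested. The 8 that rose did so by 1.33-fold to 1.93-fold, and 16.7% of all probesets rose. They were the phosphatase, the 3 LNZ003 kinase probesets, AW348945.1_588, the monodehydroascorbate/ferredoxin reductase, CO985443.1_680 and BM891108.1_471. The last, a soybean expressed sequence tag, had 723, 516 and 450.4 units in nitrate roots and 118, 118 and 92.2 in control roots, with 131, 151 and 145 in nitrate nodules and 93.9, 76.6 and 59.3 in control nodules. The 2 that fell were ornithine decarboxylase and BQ297613.1_333, and 28.9% of all probesets fell. With the slide as a block, 12 of the 30 passed, against 51.7% of all: 8 of the 10 stayed, these 2 were lost and 4 others were called. The changes of that fit are those within slide 3, nitrate nodule 3 against the 3 control nodules, since the slide of nitrate nodules 1 and 2 held no control nodule. For the 2 lost calls they were -0.79 ± 0.36 (ornithine decarboxylase) and -0.59 ± 0.24 (BQ297613.1_333). Within slide 3, 5 of the 36 probesets were beyond 1, a comparison added after the data were seen. They were the 3 LNZ003 kinase probesets, BE821041.1_649 and LBD16. Nitrate nodules lay wholly above control nodules on 10 of the 30, against 24.0% of all, and wholly below on 3, against 38.6%.

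The median nodule change of the 36 probesets was 0.30, against -0.08 for all probesets tested in nodules, and the median root change was 2.59, against 0.10 for all tested in roots. With the 2 probesets that have only a bound set to it, the median root change was 2.54. By replicate number, the median root change was 2.40, 3.02 and 2.60 for numbers 1, 2 and 3. For number 2 the median of all probesets tested was itself 0.31. Every probeset was higher by at least 1 log2 unit within every number, where the separate root arrays of the choice fixed the direction. Control root 2 was the dimmest control for 19 of the 36 and control root 1 the brightest for 21. Against control root 1 alone, which shared the slide of the nitrate roots, the median was 2.28, against -0.11 for all probesets tested, all 36 probesets were higher by at least 1.19 log2 units, and 24 were higher by at least 2.

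**Figure D5:**
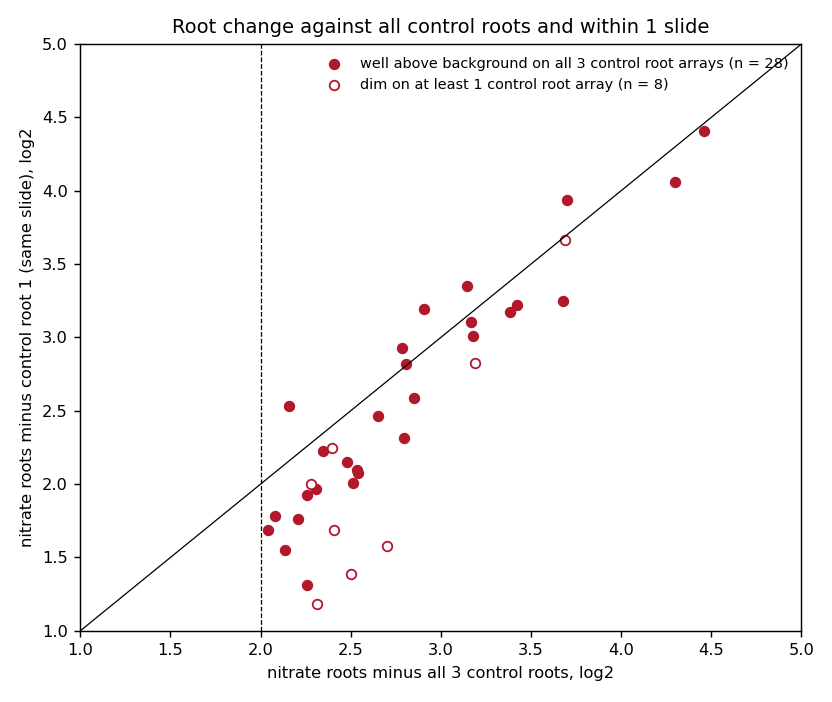
Root change of the 36 probesets against control root 1, on the slide of the nitrate roots, plotted against the change from all 3 control roots, both in log2; the diagonal marks equal values and the dashed line the limit of 2. Most points lie under the diagonal, and 4 of the 8 open points, dim on at least 1 control root array, are among those furthest under it.

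The 5 probesets that did not pass limma in roots were CF921802.1_580, BU548810.1_658, BI470591.1_408, BE824457.1_603 and BU546635.1_581. BU546635.1_581 had 306, 172 and 52.3 units in nitrate roots and 47.8, 42.8 and 15.9 in control roots, so the lowest nitrate root was just above the highest control root. Its difference of 2.13 was 2.84 without nitrate root 3 and 1.11 with normexp. BI470591.1_408 had 95.9, 74.4 and 46.8 units in nitrate roots and 23.2, 3.07 and 16.9 in control roots, a difference of 2.70 that was 1.81 without control root 2 and 0.97 with normexp. BE824457.1_603 had 54.7, 17.7 and 21.6 units in nitrate roots and 10.53, 2.16 and 5.08 in control roots, a difference that was 1.91 without control root 2 and 0.41 with normexp. Their standard errors were 0.60 to 0.73 log2 units, against 0.20 to 0.51 for the 31 that passed.

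At the threshold, the members with the smallest root changes were BE024005.1_419 at 2.04, CO985443.1_680 at 2.08 and BU546635.1_581 at 2.13. The nearest outside that met the other conditions were BI786161.1_431 at 1.98, CX707416.1_792 at 1.94 and BM891277.1_317 at 1.94. CX707416.1_792, without a description, had 212, 399 and 401 units in nitrate roots and 109, 71.1 and 76.9 in control roots, so the line at 2 separates near neighbours.

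The word lists show which functions the 36 held. Descriptions were at hand only for probesets that the study had selected as changed on these samples, so counts within a list are not independent of the treatment. Over all probesets tested in roots, 0.851% rose and 1.7% fell, with a median of 0.10. Of the 36 probesets, 27 had a description, among 2960 described probesets in all, and 13 fell in a list. With so few members among the described probesets, a short list would seldom hold one. An empty list is therefore not read as a result. None of the 15 described probesets of ammonium assimilation was a member: all 15 rose in roots, with a median of 3.08, but 10 also exceeded the nodule limit. Another 4, all glutamine synthetase precursor, changed by -0.07 to 0.52 in nodules and failed on the organ limit. GMFL01-16-C01-R_584, a cytosolic glutamine synthetase, had a root change of 1.26, under the limit of 2. None of the 12 of anion and nitrate transport was a member either, with 7 of 11 tested raised in roots and 1 lowered and a median of 1.82. The same held for the 11 of reductant supply (7 raised, 1 lowered, median 1.57), the 10 of carbon skeletons (5 raised, none lowered, median 1.66) and the 107 of protein folding and ribosome making (17 raised and 1 lowered of 106 tested, median 1.20).

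No member shared its clone or sequence accession with another probe of the array, so no second probe of a member could be compared.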

How the data were processed

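RNA of 3 samples per group was hybridised to 1-colour Agilent arrays. Per the file headers, the deposited intensity values are processed signals, background-adjusted within each array by Feature Extraction 10.5.1.1 (the submitters' processing notes name 9.5.1) and not scaled between arrays. All 529980 values of the series table equalled the scanner values. Each array was scaled to an average of 2500 over 42748 probes and taken to log2.

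Changes were fitted on the 6 arrays of an organ with limma 3.58.1 in R 4.3.3, after spots marked as outliers were removed, and a probe was tested if 1 of the groups had it well above background on each array. Standard errors are limma's. Where a group had no such array, the fold is a lower bound: each of its arrays enters at the dimmest signal that passed the background mark there, or at the probe's own signal if that was brighter. Exact permutation of 3 against 3 cannot go below 0.1 and was not used. Fits were tested on simulated data. Tables used Python 3.11.15, numpy 2.4.6 and pandas 2.3.3.

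Same-numbered nitrate and control roots deviated together from their group means, with correlations over probes of 0.29, 0.40 and 0.61. Roots of different numbers had -0.524 to 0.095. With 3 samples per group the deviations are not independent, and whether the numbers pair the root samples was not tested. The title and the source name of control root 1 give different replicate numbers, and the title was used. Samples were separate pools of plants, per the study's methods.

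Members, word lists and tests were chosen with earlier results of these data known. Values are given for the 12 members with the largest changes, for up to 3 members of a word list, for those next to the threshold and for those that changed most in nodules. The other probesets given with values were chosen after their values were seen. Descriptions came from the study's supplementary lists. No member accession was found in the RefSeq gene table, and probe sequences were not used here.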

Additional observations from a re-analysis of the deposited data

Results flagged for a closer look

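For 3 probesets, all nitrate root arrays lay above all control root arrays while all nitrate nodule arrays lay below all control nodule arrays. The root part was required by the choice. The nodule part held for 3 of the 30 members tested in nodules, against 38.6% of all probesets tested there, so it was not more frequent than at large. The nodule change was -0.79 for AW349137.1_709 (ornithine decarboxylase), -0.52 for BQ297613.1_333 (an inositol kinase) and -0.45 for GMFL01-32-M20-R_380. The nodule fall of the first 2 passed limma and that of the third did not. Neither call held with the slide as a block, whose changes rest on nitrate nodule 3 alone. The difference between the organs was not tested, since both changes had been used to choose the probesets.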

How the results depend on the processing

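The number of probesets raised in roots only was 36. It was 39 with scaling to the 75th percentile (33 of the 36 kept), 41 with quantile normalization (32 kept) and 23 with normexp background correction (17 kept). None of the 8 members dim on a control root array was kept with normexp, whose offset narrows the ratios of dim signals, and 17 of the 28 bright ones were. Over the 3 scalings, 16 members were kept each time. Leaving out single arrays gave 34 to 59 probesets, the most without nitrate root 3, and 29 to 36 of the members were kept. A root limit of 1.5 gave 84, a root limit of 2.5 gave 22, and no organ limit gave 122; a nodule limit of 0.5 gave 24, and dropping the background or the separation condition gave 40 each.

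The 31 members called in roots became 13 with the slide as a block and 9 with the methods' t-test after Benjamini-Hochberg adjustment, and they were 19 to 34 with single arrays left out, 19 of them without control root 3. Over all probesets the adjusted t-test called 64 of 33957. Limma called 118 of 34015 without control root 3 and 1121 of 34386 without control root 1, where 34 members passed. The t-test at its unadjusted threshold called 35 members, against 882 of all 33957 probesets. The 10 members called in nodules were 4 with all 12 arrays in one fit and 12 with the replicate block. Same-numbered nodule samples had correlations of deviations of 0.14, 0.03 and 0.11. With single arrays left out, 7 to 13 members were called. Over all probesets the nodule calls were 16083 of 35253, 4130 of 36432 with all 12 arrays and 13666 of 35253 with the replicate block. They were 9711 to 14850 with single arrays left out. In roots the replicate block called all 36 members, 5 more than without it, while its calls over all probesets were 1435 in place of 289. The median root change was 2.59, 1.97 with normexp, 2.28 within the shared slide and 2.49 to 2.77 with single arrays left out. Root changes of single members kept their sign in all 324 recomputed values. With single arrays left out, this sign was fixed by the separate root arrays that the choice required. With normexp 16 changes moved by over 1.5 times, 19 fell under 2 and 6 under 1, down to 0.12 for CA936913.1_509. Nodule changes changed sign in 14 of 324. The offset of 50 units in normexp by itself narrows the ratios of dim signals, so normexp is no neutral check on dim members. Its part in the normexp shifts, and the cause of the other shifts, were not tested. All nodule arrays of CO980866.1_352, CA936913.1_509 and BU548810.1_658 were dim, so signal over background leaves their nodule changes unmeasured.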
